A study of Homo sapiens with 8 samples.

Results

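The genes described here were 8 genes that set the supply of deoxynucleoside triphosphates (dNTPs), the building blocks of DNA: RRM1, RRM2, TYMS, TK1, DTYMK, DCK, CTPS1 and SAMHD1. They were chosen by symbol from the pathway, with earlier results of these data known, and all 8 were listed, out of 19952 gene symbols. They were read in 8 RNA-seq libraries from the human uveal melanoma (UVM) lines 92.1 and MEL290, in 4 groups of 2. In 92.1, cells carrying shCtrl, which the methods describe as the empty vector, were compared with cells carrying a short hairpin RNA against APOBEC3B (shA3B). In MEL290, negative control cells (NC) were compared with cells overexpressing APOBEC3B (A3B OE). The deposited value is the FPKM, the number of fragments scaled to transcript length and to the mapped fragments of the library, so levels of different genes can be set side by side. Both lines were grown in RPMI1640 with fetal bovine serum. The methods describe lentiviral delivery (pGIPZ for the hairpin, pHAGE-puro for A3B) and puromycin selection, so each group was an infected population. Which hairpin each shA3B library carried is not given in the sources used here. The labels do not say that the 2 libraries of a group came from separate cultures, so p-values measure only the spread between these libraries, which may be technical.

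APOBEC3B (A3B) is a cytidine deaminase that converts cytosine to uracil in single-stranded DNA, and the study asked how it bears on replication stress, which arises when forks slow or stall, also when dNTPs run short. Ribonucleotide reductase makes deoxynucleotides from ribonucleotides. Its large catalytic subunit is RRM1, and its small subunit is RRM2 in dividing cells or RRM2B, a p53 target, outside S phase and after damage. Thymidylate has its own routes: TYMS methylates dUMP to dTMP, TK1 salvages thymidine, and DTYMK phosphorylates dTMP from both. DCK salvages deoxycytidine and other deoxynucleosides, and CTPS1 makes CTP from UTP. SAMHD1 works in the opposite direction and hydrolyses dNTPs. RRM2, TYMS and TK1 are well known to be made mainly in cells that enter and pass through S phase.

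The genes lie on 7 chromosomes (GRCh38, GENCODE release 44): RRM1 at chr11:4094707-4138932 and RRM2 at chr2:10120698-10211725, TYMS at chr18:657653-673578 and DCK at chr4:70992538-71030914, and CTPS1 at chr1:40979300-41012565, all on the plus strand. TK1 at chr17:78174091-78187233, DTYMK at chr2:241675747-241686944 and SAMHD1 at chr20:36890229-36951893 are on the minus strand. The promoters of 4 of them are shown, those of RRM2 and TK1, which had the largest differences after A3B overexpression, of TYMS, the thymidylate gene with the largest difference between the lines, and of SAMHD1, which was not called after overexpression. Each is the 250 bases before the RefSeq transcript start (GRCh38.p14), 5′ to 3′ on the gene's own strand: RRM2 at chr2:10122489-10122738, TK1 at chr17:78187053-78187302, TYMS at chr18:657403-657652 and SAMHD1 at chr20:36951709-36951958. Other annotated transcripts of RRM2, TK1 and SAMHD1 start inside these windows, and the TYMS window overlaps the antisense gene TYMSOS. Capitals mark matches on either strand to an E2F-type word (TTCCCGC, the word TTGGCGC, the word TTCGCGC or the word TTGCCGC), to the CCAAT box (CCAAT) or to the cell cycle homology region (CHR, TTTGAA), elements known from cell cycle promoters.
RRM2: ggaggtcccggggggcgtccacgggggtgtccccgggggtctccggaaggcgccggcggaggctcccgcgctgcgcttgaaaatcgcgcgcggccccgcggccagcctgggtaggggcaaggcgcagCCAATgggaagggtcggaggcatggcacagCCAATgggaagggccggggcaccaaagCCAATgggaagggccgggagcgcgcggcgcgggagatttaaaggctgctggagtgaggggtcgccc
TK1: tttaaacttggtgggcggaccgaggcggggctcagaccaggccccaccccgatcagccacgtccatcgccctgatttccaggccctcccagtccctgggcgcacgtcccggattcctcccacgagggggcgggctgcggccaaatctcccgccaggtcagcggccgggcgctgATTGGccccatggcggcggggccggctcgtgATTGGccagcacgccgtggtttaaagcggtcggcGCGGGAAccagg
TYMS: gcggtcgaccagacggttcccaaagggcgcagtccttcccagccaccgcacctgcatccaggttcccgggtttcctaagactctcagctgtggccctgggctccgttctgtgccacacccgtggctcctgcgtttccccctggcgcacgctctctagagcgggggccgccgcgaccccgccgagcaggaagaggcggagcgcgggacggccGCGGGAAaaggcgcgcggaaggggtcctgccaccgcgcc
SAMHD1: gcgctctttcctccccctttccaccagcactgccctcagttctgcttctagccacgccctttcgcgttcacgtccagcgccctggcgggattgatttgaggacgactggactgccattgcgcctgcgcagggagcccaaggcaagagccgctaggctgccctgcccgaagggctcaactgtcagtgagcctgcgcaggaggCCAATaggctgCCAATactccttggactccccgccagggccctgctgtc

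The 3 CCAAT matches of RRM2 each stand in a stretch that goes on with gggaagg. TK1 held 2 CCAAT matches and 1 E2F word, TYMS 1 E2F word, and SAMHD1 2 CCAAT matches. Of the promoters not printed, RRM1 held 1 match of each kind, DCK 2 E2F words, DTYMK 2 CCAAT matches and CTPS1 none. Among the 35116 promoter windows of this length, 10.9% held an E2F word, 32% a CCAAT box and 13.3% a CHR. E2F words were thus found both in genes that were called after A3B overexpression (RRM1, TYMS, TK1) and in DCK, which was not. CCAAT boxes were likewise found in called genes (RRM1, RRM2, TK1, DTYMK) and in SAMHD1, which was not called. A match describes letters, not a bound factor.

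The targeted gene behaved as labelled. APOBEC3B was at 35.9 and 32.3 FPKM in shCtrl and at 1.98 and 2.37 FPKM in shA3B, and at 2.67 and 2.19 FPKM in NC and 28.4 and 27.5 FPKM in A3B OE. Depth could be estimated only roughly, at 25200000 to 32100000 fragments in the 92.1 libraries, 17600000 and 20700000 in NC, and 27900000 and 22900000 in A3B OE. At that depth the lowest gene, SAMHD1 in 92.1, rested on about 290 to 420 fragments. All 8 melanocyte markers checked were called lower in NC than in shCtrl, their summed level was 7887 to 8456 FPKM in shCtrl and 15.2 to 20.7 FPKM in NC, and TYR was listed at 0 in all 4 MEL290 libraries. Of the other marker lists (fibroblast, epithelial, immune and endothelial), the 1 call after either perturbation was the epithelial KRT14. It was at 1.98 and 2.36 FPKM in NC and 0.41 and 0.54 FPKM in A3B OE. CD3E and KRT5 were listed at 0 throughout, while CD68 ran from 14.5 to 35.0 FPKM. Between the controls 2 of 3 fibroblast markers tested were called higher in NC and 1 lower (34.8% and 40.1% of all genes). COL1A1 was at 26.9 and 27.5 FPKM in NC and 2.59 and 1.67 FPKM in shCtrl. PDGFRB was at 18.4 and 16.4 FPKM in NC and 0.26 and 0.07 FPKM in shCtrl. LUM went the other way, at 5.03 and 3.83 FPKM in shCtrl and 0.02 and 0 FPKM in NC. In MEL290 the melanocyte markers thus go against a melanocytic label, and MITF, at 13.7 to 19.6 FPKM, was the 1 melanocyte marker above 1.31 FPKM. Fragments from a gene and its antisense neighbour cannot be told apart with this library kit. ENOSF1 on the opposite strand covers 39.9% of the exonic bases of TYMS, and TLDC2 covers 9.86% of those of SAMHD1, while MOB1B on the same strand shares 6.41% of those of DCK. Processed pseudogenes of RRM2 (3 named) and TYMS (2 named) were not among the listed symbols, and how reads fitting them were assigned is not known. Bulk RNA cannot tell fewer cells in S phase from less RNA per cell.

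In 92.1 controls the order of the levels was TYMS, TK1, DTYMK, RRM1, RRM2, CTPS1, DCK and SAMHD1. TYMS was at 132 and 127 FPKM and SAMHD1 at 2.39 and 2.91 FPKM, and of the neighbours in this order the libraries of RRM1 and RRM2 overlapped. The median of the 12697 genes tested over all 8 libraries was 10.6 to 11.2 FPKM, so 7 of the 8 genes lay above it in 92.1 and SAMHD1 below. In MEL290 controls the order began with TK1, RRM2 and TYMS and went on with RRM1, DTYMK, CTPS1, DCK and SAMHD1. The libraries of RRM2 and TYMS overlapped there, and so did those of RRM1 and DTYMK. SAMHD1, at 9.95 and 10.6 FPKM, lay close to the median of the genes tested in these libraries.

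**Figure D1:**
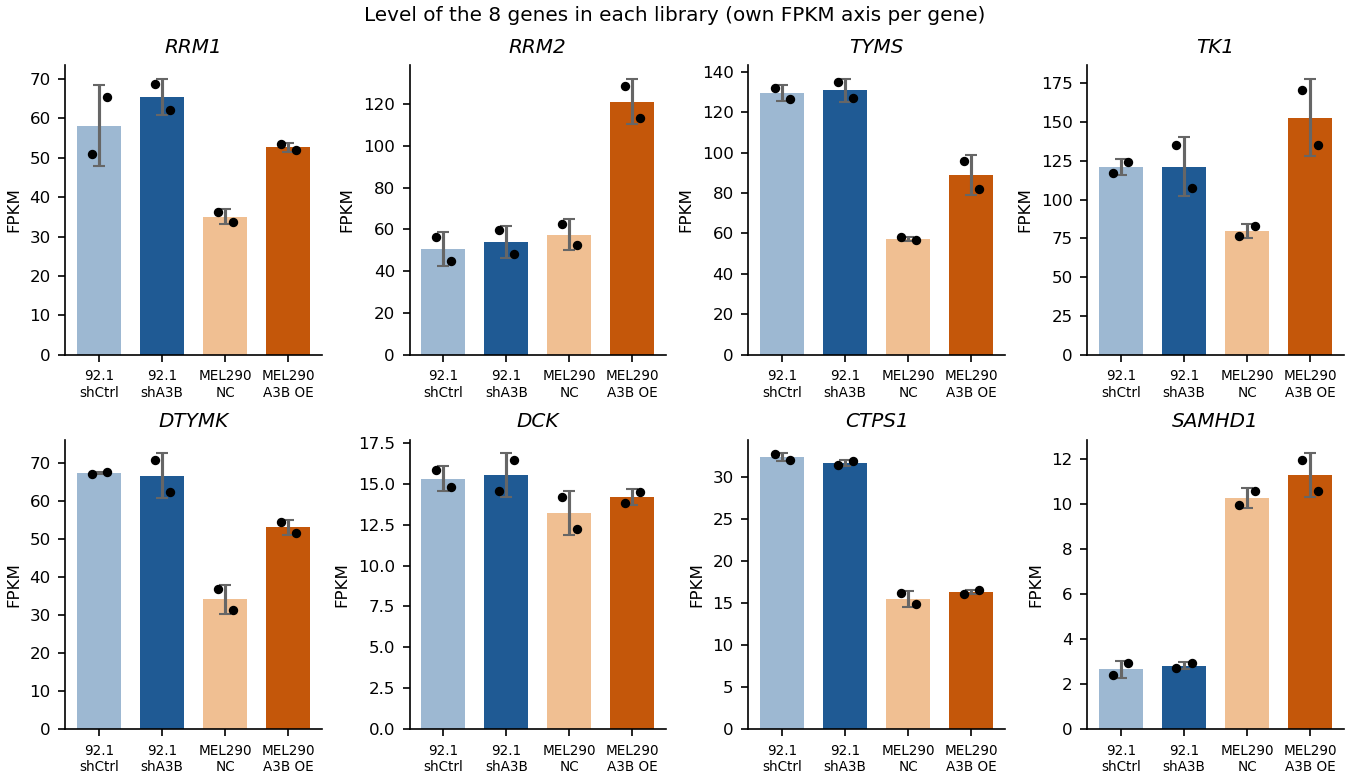
FPKM of each gene (vertical axis, from 0, with its own range per gene) in the 4 groups, with bars for the mean, error bars for the SD and points for the 2 libraries. In MEL290, both A3B OE libraries of RRM1, RRM2, TYMS, TK1, DTYMK and, narrowly, SAMHD1 lie above both NC libraries. Of all genes tested, 61.3% did not overlap there. In 92.1 only the groups of CTPS1 are apart, narrowly lower in shA3B, where 28.6% of all genes tested did not overlap.

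Overexpression of A3B in MEL290 was accompanied by higher levels of both ribonucleotide reductase subunits and of all 3 thymidylate genes. Differences were tested with limma on log2(FPKM + 1) over all genes that reached an FPKM of 1 in 2 or more of the libraries, and a gene was called at a Benjamini-Hochberg adjusted p under 0.05. RRM1, RRM2, TYMS, TK1 and DTYMK were called higher and none lower, 5 of 8, where 10.3% of all 11611 genes tested were called higher and 17.8% in either direction. The median difference of the 8 was 0.60 on the log2 scale, and that of all genes tested was 0.0041. The groups did not overlap for 6 of the 8 genes, the called 5 and SAMHD1, all higher, where 61.3% of all genes tested did not overlap. The rough depth was lower in both NC libraries than in both A3B OE libraries, and its part in these differences was not tested.

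RRM2, the small subunit whose supply follows S phase, moved most. It was at 62.7 and 52.3 FPKM in NC and at 129 and 114 FPKM in A3B OE, 57.5 ± 7.32 against 121 ± 10.8 (SD, n = 2 each), so that the lower A3B OE library stood well above the higher NC library. The difference was 1.07 on the log2 scale (standard error 0.11, adjusted p = 0.0037, limma), a ratio of means of 2.11. RRM1, the catalytic subunit, was at 36.3 and 33.7 FPKM in NC and at 53.5 and 51.9 FPKM in A3B OE. Its difference was 0.58 (standard error 0.081, adjusted p = 0.0084, limma), a ratio of means of 1.51. The calls of RRM1 and RRM2 held under every alternative tried.

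Of the thymidylate genes, the salvage kinase TK1 differed most. It was at 76.4 and 83.1 FPKM in NC and at 170 and 135 FPKM in A3B OE, and its A3B OE libraries were the most widely spread of the 8 genes (152.8 ± 24.9, SD, n = 2), yet both were above NC. Its difference was 0.92 (standard error 0.12, adjusted p = 0.0065, limma). TYMS, the thymidylate synthase, was at 58.0 and 56.6 FPKM in NC and at 95.8 and 81.8 FPKM in A3B OE, a difference of 0.62 (standard error 0.094, adjusted p = 0.010, limma). ENOSF1, which overlaps it on the other strand, was at 13.8 and 18.2 FPKM in NC and 23.5 and 19.6 FPKM in A3B OE, a difference that was not called (0.41, adjusted p = 0.13, limma). DTYMK, where de novo synthesis and salvage of dTMP meet, was at 36.8 and 31.4 FPKM in NC and at 54.5 and 51.7 FPKM in A3B OE, a difference of 0.63 (standard error 0.10, adjusted p = 0.011, limma). Without any filter on low values TYMS, TK1 and DTYMK missed the threshold (adjusted p = 0.057, 0.056 and 0.059, limma). DTYMK also missed it without A3B OE replicate 1 (0.065) or replicate 2 (0.056).

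DCK, CTPS1 and SAMHD1 were not called. DCK was at 14.2 and 12.2 FPKM in NC and at 13.9 and 14.5 FPKM in A3B OE, with overlapping groups and a 95% interval of the difference from -0.18 to 0.38. CTPS1 was at 16.2 and 14.9 FPKM in NC and at 16.1 and 16.5 FPKM in A3B OE, also overlapping, with an interval from -0.17 to 0.31. SAMHD1, the dNTP hydrolase, was at 9.95 and 10.6 FPKM in NC and at 11.96 and 10.6 FPKM in A3B OE. Its groups were just apart, by less than the spread within A3B OE, and its difference of 0.12 had an interval from -0.16 to 0.40 (adjusted p = 0.51, limma). The upper ends of these 3 intervals stayed below the smallest difference among the 5 called genes, 0.58 for RRM1. That estimate has its own error (standard error 0.081), and the genes were not tested against each other.

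**Figure D2:**
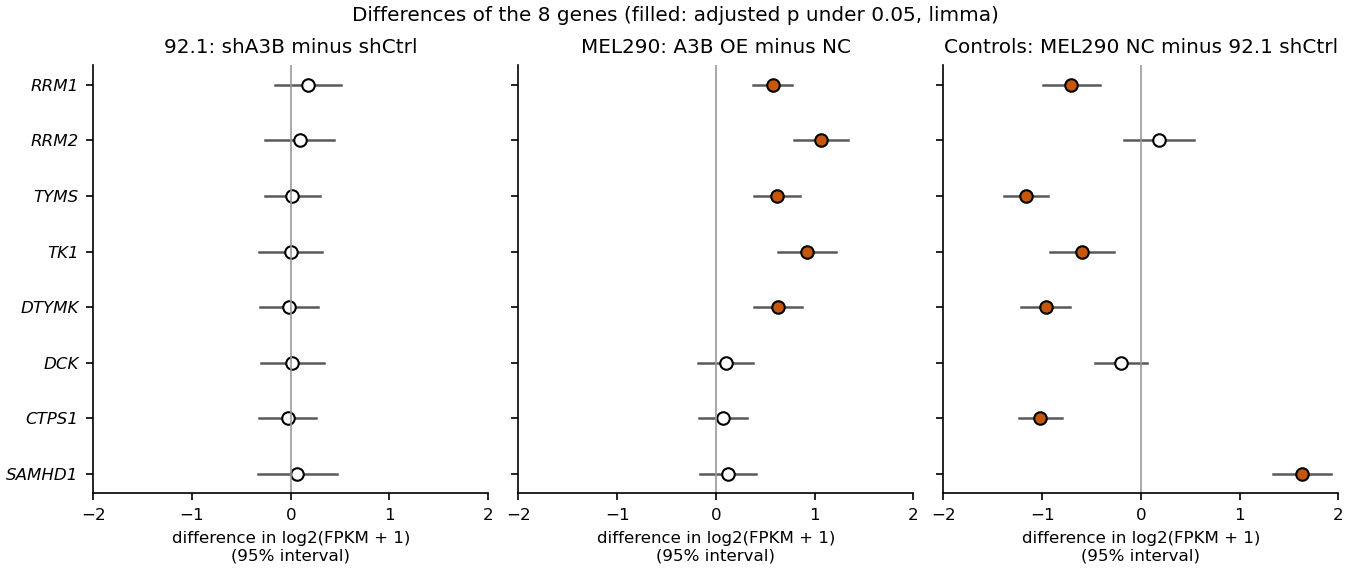
Difference in log2(FPKM + 1) of each gene (horizontal axis, with its 95% interval as a line) for shA3B minus shCtrl in 92.1, A3B OE minus NC in MEL290, and NC minus shCtrl. Filled points have an adjusted p under 0.05, none of 8 in 92.1, 5 in MEL290, all higher, and 6 between the controls. Of all genes tested, 0.00862%, 17.8% and 74.9% were called in these comparisons, so the count between the controls is at the background.

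Depletion of A3B in 92.1 came with small differences in the 8 genes. None was called by limma, in either direction (differences from -0.03 to 0.18, adjusted p = 0.999 for all 8), and 0 of 8 reached an unadjusted p under 0.05, the lowest being 0.27 for RRM1. The background was 0.00862% of 11605 genes tested, which was APOBEC3B itself. RRM2 was at 56.5 and 45.0 FPKM in shCtrl and at 59.5 and 48.5 FPKM in shA3B, so the 4 libraries interleaved. TK1 was at 117 and 124 FPKM in shCtrl and at 135 and 108 FPKM in shA3B, with both shCtrl libraries between the shA3B libraries. TYMS was at 132 and 127 FPKM in shCtrl and at 135 and 127 FPKM in shA3B, and RRM1 at 51.0 and 65.4 FPKM against 68.7 and 62.2 FPKM, also interleaved. DTYMK was at 67.2 and 67.5 FPKM in shCtrl and 70.8 and 62.4 FPKM in shA3B.

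DCK, at 15.8 and 14.8 FPKM in shCtrl, was at 14.6 and 16.5 FPKM in shA3B, and SAMHD1, at 2.39 and 2.91 FPKM, was at 2.70 and 2.93 FPKM. CTPS1 was the 1 gene whose groups did not overlap, at 32.75 and 32.12 FPKM in shCtrl and 31.43 and 31.95 FPKM in shA3B, lower by 0.03 on the log2 scale. That is 1 of 8, where 28.6% of all genes tested did not overlap. The 95% intervals of the 8 differences ran from -0.33 at the lowest (SAMHD1) to 0.51 at the highest (RRM1), and the interval of RRM2 from -0.26 to 0.44. A fall in RRM2 or TK1 as large as the rise after overexpression in MEL290 (1.07 and 0.92) lay outside their intervals in 92.1.

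The effects in the lines were compared in 1 fit over all 8 libraries, as the A3B OE effect minus the shA3B effect. Of the 8 genes, RRM2 (0.98, standard error 0.22, adjusted p = 0.047, limma) and TK1 (0.92, standard error 0.20, adjusted p = 0.043, limma) were called, both more positive in MEL290, where 4.4% of 12697 genes were called. TYMS (0.60, adjusted p = 0.051), DTYMK (0.65, 0.055) and RRM1 (0.40, 0.26) missed the threshold, and so did CTPS1, DCK and SAMHD1, with differences from 0.06 to 0.10. The calls of RRM2 and TK1 depended on single libraries and on the settings. RRM2 missed the threshold whichever library was left out (adjusted p = 0.065 to 0.16), and TK1 did in 7 of 8 cases (0.050 to 0.14 over the 8). Both calls were also lost without the trend in limma (adjusted p = 0.061 for RRM2 and 0.060 for TK1), without a filter on low values (0.11 and 0.098) and with a pseudocount of 0.1 (0.062 and 0.057). The comparison is of overexpression with depletion in different lines. Line, vector, sequencing or processing batch and direction of the perturbation therefore cannot be told apart.

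Between the controls the differences of the 8 genes spanned -1.16 to 1.63 on the log2 scale. Relative to shCtrl, NC was lower for TYMS, CTPS1, DTYMK, RRM1 and TK1 and higher for SAMHD1, 6 of 8 called, where 74.9% of 12697 genes were called, so the count is at the background. For calls in the lower direction it was 5 of 8 against 40.1% of all genes. The libraries of shCtrl and NC are also the controls of the perturbations, so these values share them. Cell line, vector and sequencing or processing batch cannot be told apart here.

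SAMHD1 had the largest difference and the only one upward among those called, 10.3 ± 0.44 FPKM in NC against 2.65 ± 0.37 FPKM in shCtrl (SD, n = 2 each). Its ratio of means was 3.87, and its difference on the log2(FPKM + 1) scale, which understates changes of low genes, was 1.63 (standard error 0.13, adjusted p = 6.9e-06, limma). TYMS was 2.26-fold higher in shCtrl (-1.16, adjusted p = 9.9e-06), CTPS1 2.09-fold (-1.02, adjusted p = 1.6e-05) and DTYMK 1.98-fold (-0.97, adjusted p = 5.6e-05). RRM1 was 1.66-fold higher in shCtrl (-0.71, adjusted p = 0.00098). TK1 was 1.51-fold higher (-0.59, adjusted p = 0.0048), but this call was lost once each library was freed of its trend with GC content and length (-0.20, adjusted p = 0.14). RRM2 (0.18, adjusted p = 0.31) and DCK (-0.20, adjusted p = 0.15) were not called. With the same trend removed DCK was called lower (-0.47, adjusted p = 0.0022) and RRM2 changed sign (-0.046). With A3B overexpressed, TK1 and RRM2 in MEL290 stood above their 92.1 control libraries in both replicates, while TYMS and DTYMK stayed below theirs.

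Ratios within a library describe how these genes shifted against each other. They were tested by an exact two-sided permutation test, which cannot give a p below 0.33 with 2 libraries against 2. The ratio of RRM2 to RRM1 was 1.72 and 1.55 in NC and 2.41 and 2.19 in A3B OE (exact p = 0.33). The ratio of RRM2 to SAMHD1, maker against hydrolase, was 6.30 and 4.95 in NC and 10.8 and 10.7 in A3B OE (exact p = 0.33). The ratio of TK1 to DCK was 5.39 and 6.79 in NC and 12.3 and 9.31 in A3B OE, and that of TYMS to TK1 was 0.76 and 0.68 in NC and 0.56 and 0.61 in A3B OE (exact p = 0.33 for both). None of the 4 ratios overlapped between NC and A3B OE, but RRM2 and TK1 each enter 2 of them, so they are not independent. Taken singly, 61.3% of all genes tested did not overlap there. In 92.1 the same 4 ratios overlapped between shCtrl and shA3B (exact p = 1.0 for each), the ratio of RRM2 to SAMHD1 being 23.6 and 15.5 in shCtrl and 22.1 and 16.5 in shA3B. RRM2 itself was at 50.7 ± 8.08 FPKM in shCtrl and 57.5 ± 7.32 FPKM in NC (SD, n = 2 each), so the lower ratio to SAMHD1 in NC goes with the higher level of SAMHD1 there.

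The alternative small subunit moved the other way in MEL290. RRM2B was at 31.3 and 33.0 FPKM in NC and at 18.5 and 19.3 FPKM in A3B OE, both lower, a difference of -0.74 (standard error 0.088, adjusted p = 0.0052, limma). In 92.1 it was at 13.0 and 8.98 FPKM in shCtrl and at 9.92 and 10.9 FPKM in shA3B, overlapping and not called. The ratio of RRM2 to RRM2B, computed after these values were seen, was 2.002 and 1.58 in NC and 6.96 and 5.88 in A3B OE, a 3.59-fold shift of the geometric mean (exact p = 0.33). Of the reductants that feed electrons to the enzyme, TXN (-0.23), TXNRD1 (0.19) and GLRX (-0.29) were not called (adjusted p = 0.12, 0.086 and 0.098, limma).

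Among the other genes of nucleotide supply, those of the thymidylate and folate cycle were the list with most calls in MEL290. In all, 49 of 53 listed genes were tested, with a median difference of 0.01. Of these, 8 were called higher, 3 were called lower and 38 were not called. The background shares in MEL290 were 10.3% upward and 7.49% downward, so the pooled counts of these lists lie near the background. In the thymidylate and folate list 4 of 7 were called higher and none lower, with a median of 0.43. SHMT1, a serine hydroxymethyltransferase that charges folate with a methylene group, was at 12.9 and 14.8 FPKM in NC and 24.9 and 25.7 FPKM in A3B OE (0.83, adjusted p = 0.0061). MTHFD1 (0.50, adjusted p = 0.023) and DUT, which hydrolyses dUTP and so makes dUMP for TYMS (0.43, adjusted p = 0.038), were higher as well. DCTD, the other source of dUMP, was not called (-0.22, adjusted p = 0.087), nor were SHMT2 (-0.15) and MTHFD2 (-0.03). DUT has processed copies elsewhere in the genome, so its values are uncertain.

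In the other lists of nucleotide supply from 0 to 3 genes were called in MEL290, against a background of 10.3% of genes higher and 7.49% lower. In purine synthesis 2 of 12 were higher, PRPS2 (0.55, adjusted p = 0.044) and PAICS (0.42, adjusted p = 0.021), and 1 was lower. That was PRPS1, a phosphoribosyl pyrophosphate synthetase, at 139 and 146 FPKM in NC and 70.6 and 63.6 FPKM in A3B OE (-1.08, adjusted p = 0.0018). In salvage and transport, of 6 tested, the nucleoside transporter SLC29A1 was higher (0.39, adjusted p = 0.044) and the purine nucleoside phosphorylase PNP was lower (-0.36, adjusted p = 0.032). In pool cleaning and breakdown 1 of 7 was higher, the uridine phosphorylase UPP1 (0.66, adjusted p = 0.028). In pyrimidine synthesis 0 of 5 were called by limma, and 0 of 5 reached an unadjusted p under 0.05. DHODH (0.34) and CTPS2 (0.21) had the largest differences there. Of the nucleotide kinases 0 of 8 were called, 2 reached an unadjusted p under 0.05, and NME3 (-0.40) and NME2 (-0.24) had the largest differences. In 92.1 none of the 51 other nucleotide genes tested was called by limma and 0 reached an unadjusted p under 0.05, with differences from -0.24 (NT5M) to 0.27 (NT5C3A). Between the lines, SHMT1 (0.86, adjusted p = 0.021) and PRPS1 (-0.98, adjusted p = 0.033) were the 2 of 52 whose effects were called different. Of all genes tested 4.4% were, so this count is near the background. Between the controls 12 of 52 were called higher and 34 lower in NC, where 34.8% and 40.1% of all genes were, among the higher ones all 4 of the other reductase list.

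**Figure D3:**
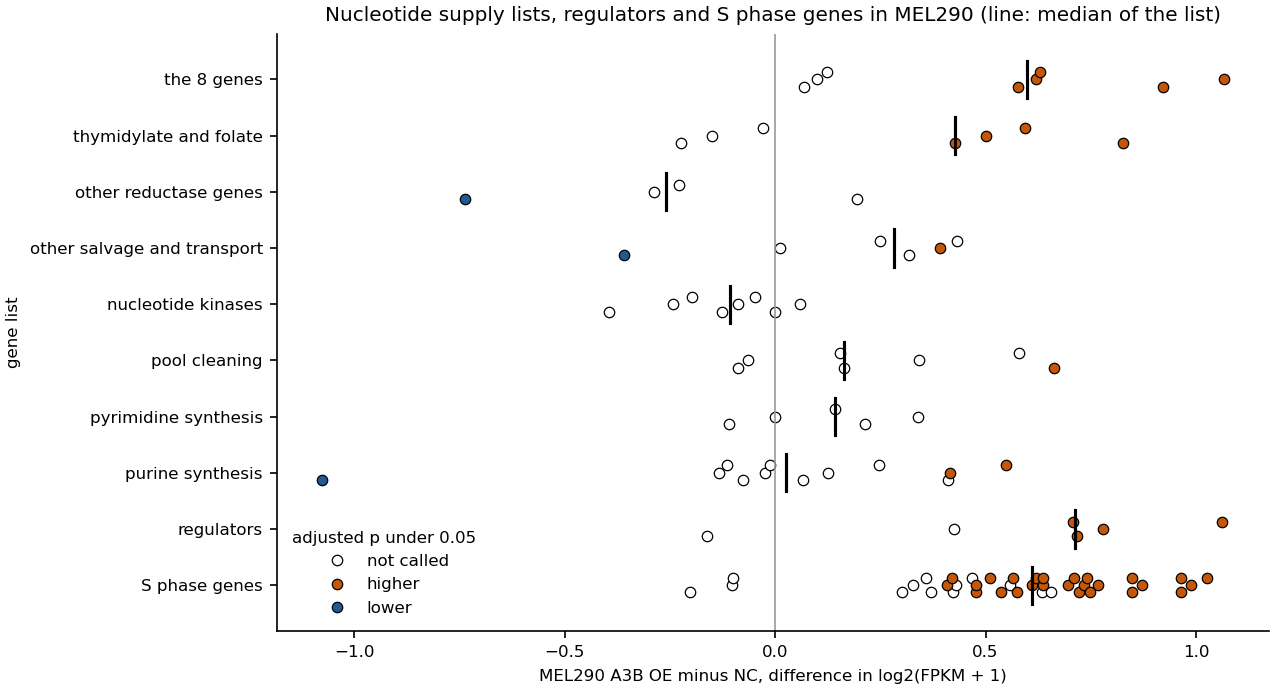
Difference in log2(FPKM + 1) between A3B OE and NC in MEL290 (horizontal axis) for each tested gene of 10 lists (vertical axis), with a line for the list's median. Filled points have an adjusted p under 0.05, and the S phase genes, with a median of 0.61, run from -0.20 to 1.03, with 13 of the 39 not called. Of all genes tested, 17.8% were called in either direction.

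Most S phase genes tested were also higher with A3B overexpressed. Of 40 such genes in the Seurat list without the 8, 39 were tested in MEL290, and 26 were called higher, 0 lower and 13 not, with a median of 0.61 and a range from -0.20 to 1.03, where 10.3% of all genes tested were called higher. The summed level of the list was 548 to 552 FPKM in NC and 779 to 850 FPKM in A3B OE. Those called include the replicative helicase (MCM4, MCM5, MCM6, MCM7, CDC45, GINS2), primase and polymerase alpha (PRIM1, POLA1), the clamp and its loader (PCNA, RFC2), repair and fork genes (FEN1, UNG, BLM, CLSPN, USP1, DTL), and CHAF1B, NASP, UHRF1, ATAD2, CDCA7, CENPU and the licensing inhibitor GMNN. The differences of the 26 called ran from 0.41 (PCNA) to 1.03 (GMNN). In 92.1 none of the 40 was called by limma, 1 reached an unadjusted p under 0.05, and the summed level was 1510 to 1529 FPKM in shCtrl and 1583 to 1592 FPKM in shA3B. The effects in the lines were called different for 5 of 40, where 4.4% of all genes were. These were CDCA7, NASP, GMNN, CDC45 and BLM, each more positive in MEL290. Between the controls 33 of 40 were called lower in NC and 1 higher, where 40.1% and 34.8% of all genes were. The part of S phase RNA in the differences of the 8 genes was not tested.

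Of 6 genes known to control these proteins, 4 were called higher in MEL290 and none lower, where 10.3% and 7.49% of all genes were. CCNA2 (cyclin A, 1.06), CCNF (cyclin F, which marks RRM2 for degradation, 0.78), CDK2 (0.72) and CDK1 (0.71) were called higher (adjusted p = 0.0030 to 0.017, limma). E2F1, a transcription factor of S phase entry, was at 10.5 and 10.0 FPKM in NC and 15.2 and 13.1 FPKM in A3B OE and missed the threshold (0.42, adjusted p = 0.057), and FZR1 was not called (-0.16). CCNA2 was at 20.5 and 17.7 FPKM in NC and 41.7 and 40.0 FPKM in A3B OE. In 92.1 none of the 6 was called by limma and 0 reached an unadjusted p under 0.05, with CDK1 (0.19) and E2F1 (-0.17) differing most. CDK2 in 92.1, at 401 to 470 FPKM, lies inside the span of PMEL on the other strand, which was at 3777 to 4587 FPKM there and at 1.31 FPKM or less in MEL290, and shares 89 exonic bases with it, 2.29% of those of CDK2. Whether reads of PMEL were counted for CDK2 was not tested. Between the lines CCNA2 (0.92), CCNF (0.85) and CDK2 were called different, where 4.4% of all genes were.

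SAMHD1 can be induced by interferon, and the interferon genes checked held calls in both directions in MEL290. Of 8 listed, 6 were tested. IRF1 (1.29, adjusted p = 0.0037), IFIT3 (0.96, adjusted p = 0.011) and IFIT1 (0.67, adjusted p = 0.030) were called higher and ISG15 was called lower (-0.54, adjusted p = 0.010). Of all genes tested, 10.3% were called higher and 7.49% lower. IFIT3 and IFIT1 were low genes. IFIT3 was at 1.36 and 1.45 FPKM in NC and 3.35 and 4.04 FPKM in A3B OE, and IFIT1 at 1.13 and 1.21 FPKM against 2.27 and 2.66 FPKM. In 92.1 none of the 5 tested was called by limma and 1 reached an unadjusted p under 0.05. IFIT3 and IRF1 were the 2 of 6 whose effects were called different between the lines, where 4.4% of all genes were. Between the controls 4 of 6 were called higher in NC, where 34.8% of all genes were.

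The genes whose pattern over the 8 libraries was most like that of RRM2 were ADPGK (Pearson r = 0.986), PTK2B (0.976) and DEPDC1 (0.976), out of 9892 genes that averaged 4 FPKM or more. PTK2B was at 1.33 to 2.69 FPKM in 6 libraries and at 11.3 and 10.1 FPKM in A3B OE. For SAMHD1 they were MINK1 (0.999), EMP3 (0.998) and SP140L (0.998), each higher in all 4 MEL290 libraries than in all 4 of 92.1. These are descriptions over 8 points that form groups of libraries, not tests.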

How the data were processed

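The 8 libraries, 2 per group, were made with a NEBNext Ultra RNA kit from total RNA. According to the labels and methods, the authors used STAR on GRCh38 for alignment and Cufflinks over Ensembl genes for the deposited FPKM values, 1 per symbol and library. Versions are not given in the sources used here. The gene models behind the FPKM are not settled, since the named Ensembl release does not match GRCh38. FPKM is no count, so differences were tested on log2(FPKM + 1) with limma 3.58.1 (lmFit, eBayes with a trend, R 4.3.3), for genes that reached an FPKM of 1 in 2 or more libraries of the fit, Benjamini-Hochberg adjusted over all of them, at a threshold of 0.05. Each line was fitted alone. The difference between effects and NC minus shCtrl came from 1 fit over 8 libraries. The test was run on simulated data with normal noise of its own fitted spread, which cannot show how well it suits these libraries. Ratios were tested by exact permutation (scipy 1.17.1).

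The 8 genes and all lists were chosen with earlier results of these data known. Named are the 8 genes and APOBEC3B, each called gene of the other lists or otherwise its 2 largest differences, and the 3 genes most like RRM2 and SAMHD1. Between the controls, counts alone are given for the other lists, with the levels of some cell type markers. Of 19952 symbols, 19005 matched 1 gene of GENCODE 44, and the 8 genes and the promoters of all 8 matched. Depth was estimated from low FPKM of genes with 1 transcript, of which 18.1% to 29.6% lay within 5% of the peak, so it is loose. Unused columns of per-sample values numbered 0. The values of a few listed genes are not reported here, though they count in their lists.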

Additional observations from a re-analysis of the deposited data

Results flagged for a closer look

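For 2 of the 8 genes, a test of the difference itself separated the effect of overexpressing A3B in MEL290 from that of depleting it in 92.1, RRM2 by 0.98 and TK1 by 0.92 on the log2(FPKM + 1) scale (adjusted p = 0.047 and 0.043, limma). Of all 12697 genes tested, 4.4% were called in this test. RRM2 was higher in both A3B OE libraries than in both NC libraries, and TK1 was too, where 61.3% of all genes tested did not overlap. Neither differed beyond the spread in 92.1. The 2 calls were lost without the trend in limma, without a filter on low values and with a pseudocount of 0.1. Both calls lie close to the threshold, and RRM2 missed it whichever library was left out (adjusted p = 0.065 to 0.16). TK1 missed it in 7 of the 8 cases and kept it without shA3B replicate 1.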

How the results depend on the processing

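In 92.1, 0 of the 8 genes were called under all 13 alternatives, the replicate block included. Genes called there numbered 1, and 2 without the trend in limma, 0 without a filter on low values, 37 with the replicate block, and 2 to 7 with a library left out. Replicate numbers were not shown to pair the libraries (correlation of deviations 0.19 in 92.1 and -0.03 in MEL290). In MEL290, 5 of the 8 were called, and 2 (RRM1 and RRM2) without a filter, and 4 to 5 with a library left out. Over all genes the count was 2065, and 915 without a filter, 1521 with the block and 774 to 1944 with a library left out (774 without A3B OE replicate 2, 902 without replicate 1). For the difference between the lines, 2 of the 8 were called, and 0 without the trend, without a filter or with a pseudocount of 0.1, 1 with the replicate block (RRM2, with TK1 at an adjusted p of 0.092), 4 with upper quartile scaling or without the GC and length trend, and 0 to 1 with a library left out. Over all genes this count was 559, and 328 where each library had to reach an FPKM of 1, 223 with the block, 872 with the GC and length trend removed and 150 to 285 with a library left out. Between the controls 6 of the 8 were called under all alternatives, with DCK in place of TK1 once the GC and length trend was removed. In 92.1, where no gene was called, signs changed as follows: TK1 with quantile normalization (0.046), upper quartile scaling (0.033) and the GC and length trend removed (0.067), DTYMK under the same 3 (0.017, 0.015 and 0.027), CTPS1 with upper quartile scaling (0.00095) and DCK with the trend removed (-0.11). With a library left out, the ranges there were -0.00042 to 0.35 for RRM1, -0.070 to 0.25 for RRM2, -0.027 to 0.060 for TYMS, -0.16 to 0.16 for TK1, -0.065 to 0.10 for DCK, -0.11 to 0.071 for DTYMK and -0.037 to 0.17 for SAMHD1, and for the difference between the lines -0.016 to 0.18 for DCK and -0.047 to 0.16 for SAMHD1. Between the controls RRM2 was at -0.046 with the trend removed. The cause of these changes was not tested. The signs of the 5 called genes in MEL290 and of the 4 ratios in MEL290 held throughout. Depth is known only roughly, and no counting error can be given for FPKM.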
